A study of Macaca fascicularis with 11 samples.

Results

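ANXA3, CDO1, NMRK2, TMEM54, SLC7A3 and RAB25 are 6 of the 19367 genes counted in single cells of cynomolgus macaque (Macaca fascicularis) embryos, and were chosen by symbol as genes that the study had listed for an early amnion cluster. All 6 symbols were paired with an Ensembl gene ID: ENSMFAG00000003067 (ANXA3), ENSMFAG00000032046 (CDO1), ENSMFAG00000033332 (NMRK2), ENSMFAG00000001257 (TMEM54), ENSMFAG00000002533 (SLC7A3) and ENSMFAG00000000115 (RAB25). The study picked them on its wild-type Day 14 cells, so those libraries are described here and were left out of the tests of ISL1-positive cells against another class. They do enter the comparisons of genotype and day, where a high wild-type Day 14 level is not independent of the choice.

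The embryos were cultured in vitro and dissociated for 10x Chromium sequencing at Day 10, Day 12 or Day 14 of culture. The 11 libraries hold 33330 cells, with 6 wild-type libraries from 12 embryos and 5 ISL1 mutant libraries from 11 embryos. Mutant embryos had been injected as zygotes with Cas9 and a pair of guide RNAs against ISL1, are mosaic, and carry mixtures of edited alleles. Each wild-type day and mutant Days 12 and 14 have 2 libraries, and mutant Day 10 has 1. A library pools the cells of 1 to 3 embryos. The first wild-type Day 12, the second mutant Day 12 and the second mutant Day 14 library come from 1 embryo each. Library totals were 36654977 to 164808415 UMIs (unique molecular identifiers, each standing for 1 captured RNA molecule), and median UMIs per cell ran from 10916 to 142180, with the shallowest cells in the first mutant Day 14 library.

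The amnion is the thin epithelium that encloses the embryo, and in primates it arises early, from cells of the epiblast. ISL1 is a LIM homeobox transcription factor that marks it at these stages. The 6 genes differ in function. ANXA3 is a calcium-dependent phospholipid-binding annexin, CDO1 oxidises cysteine on the way to taurine, and NMRK2 phosphorylates nicotinamide riboside in NAD salvage. SLC7A3 carries cationic amino acids such as arginine into cells, RAB25 is an epithelial small GTPase of apical recycling endosomes, and TMEM54 is a transmembrane protein.

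ISL1, the edited gene, was read in every library first. Over all cells its level was 0.901 to 8.38 CPM (UMIs of the gene per 1000000 UMIs of all genes) in the wild-type libraries and 1.42 to 4.67 CPM in the mutant libraries, so the groups overlapped and RNA counts of ISL1 do not separate the genotypes. The position of the counted reads relative to the edit was not examined. Cells were classed without any of the 6 genes, from 10 markers for each of trophoblast, endoderm, extraembryonic mesenchyme (ExE-Mech), epiblast (Epi) and mesoderm. ISL1-positive cells had at least 2 ISL1 UMIs and at most 2 detected markers of each of trophoblast, endoderm and ExE-Mech. There were 248 ISL1-positive, 2033 Epi-like, 290 mesoderm-like, 428 endoderm-like, 6169 ExE-Mech-like and 22860 trophoblast-like cells.

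ISL1-positive cells carried amnion markers in most libraries but not in all. Of 10 amnion markers other than ISL1 and the 6 genes, the median cell had 3.5 detected, against 0 in Epi-like cells. The median trophoblast-like cell had 1 detected, and 2 in each wild-type Day 10 library. The summed level of these markers was 278 to 1513 CPM over ISL1-positive sums and 301 to 1027 CPM over trophoblast-like sums. These ranges overlapped, so the list does not set the class apart from trophoblast by level. In the second wild-type Day 10 library the 9 ISL1-positive cells had a median of 0 amnion markers and 8 Epi markers, and 8 of the 9 sat at exactly 2 ISL1 UMIs in cells with a median of 117958 UMIs. That library therefore goes against the label of its class, and the tests of ISL1-positive cells are given with and without it. The second wild-type Day 12 library leaned the same way, with a median of 1 amnion marker and 5 Epi markers. The first wild-type Day 10 library had 4 ISL1-positive cells and the first wild-type Day 12 library had 0, and neither entered a test of this class. Over all libraries 77 of the 248 cells were at exactly 2 UMIs, so the class is a range of ISL1 signal cut at a threshold. A set of 124 barcodes occurred in more than 1 library, in 249 cells.

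All 6 genes had their highest median level in ISL1-positive cells, but they fell into different patterns across the other classes. TMEM54 and RAB25 were also high in trophoblast-like cells, and in wild-type each was higher in ISL1-positive cells in only 1 of 4 libraries. Those 4 include the second Day 10 and Day 12 libraries, whose ISL1-positive cells had few amnion markers. NMRK2 and SLC7A3 were shared with Epi-like cells, and SLC7A3 was close to 0 in trophoblast. CDO1 and ANXA3 were next highest in mesoderm-like cells. ExE-Mech-like cells had the lowest median of ANXA3, CDO1, TMEM54 and RAB25.

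**Figure D1:**
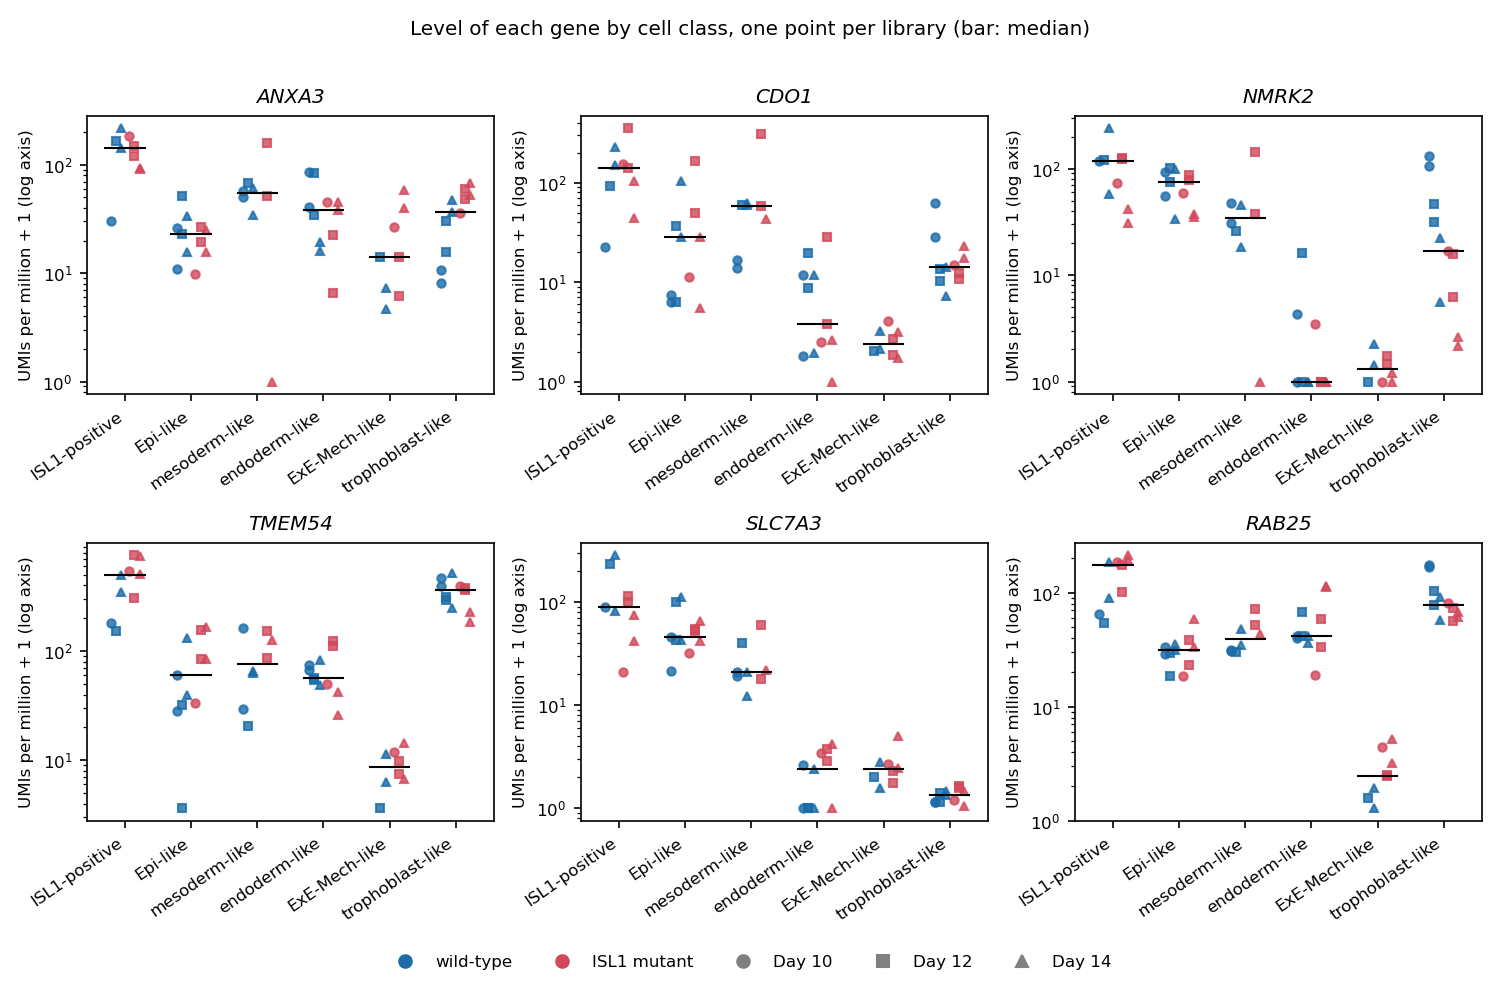
Level of each gene in CPM plus 1 (log axis) in 6 cell classes, with 1 point per library of at least 5 cells, coloured by genotype and shaped by day, and a bar at the median. SLC7A3 lies at or below 0.644 CPM in every trophoblast-like sum, while TMEM54 lies at 183 CPM or more there.

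TMEM54 had a median of 494 CPM in ISL1-positive cells (range 150 to 755 over 9 libraries) and 361 CPM in trophoblast-like cells (183 to 515 over 11 libraries), and these ranges overlapped. The trophoblast-like range did not overlap that of mesoderm-like cells, the next class (median 75.1, 19.8 to 163 CPM). ExE-Mech-like cells had 2.62 to 13.5 CPM, below every endoderm-like library. RAB25 followed the same order at the top, with a median of 173 CPM in ISL1-positive cells (53.7 to 212) and 76.6 CPM in trophoblast-like cells (55.3 to 174). Within single libraries this order differed by genotype. TMEM54 and RAB25 were each higher in ISL1-positive than in trophoblast-like cells in 1 of 4 wild-type libraries. In the mutant this held in 4 of 5 libraries for TMEM54 and 5 of 5 for RAB25. The 4 wild-type libraries include the second Day 10 and Day 12 libraries, whose ISL1-positive cells had medians of 0 and 1 amnion markers. In the wild-type Day 14 libraries the log2 ratios to trophoblast-like cells were 0.99 and -0.58 for TMEM54 and 1.72 and -0.05 for RAB25. The part of marker content in the difference between genotypes was not tested. In ExE-Mech-like cells RAB25 was at 0.281 to 4.23 CPM, below every library of the other classes. TMEM54 did not separate in this way, since its lowest Epi-like library was at 2.62 CPM.

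SLC7A3 had a median of 89.7 CPM in ISL1-positive cells (20.1 to 285) and 44.8 CPM in Epi-like cells (20.6 to 112). Mesoderm-like cells came next (median 20.1, 11.2 to 58.8 CPM), and no library of the remaining classes reached their lowest value. In trophoblast-like cells 272 SLC7A3 UMIs were counted in all, at 0.0611 to 0.644 CPM. NMRK2 had a median of 117 CPM in ISL1-positive cells (29.6 to 238) and 73.2 CPM in Epi-like cells (32.6 to 101). It was listed at a median of 0 CPM in endoderm-like cells, where 30 UMIs were counted in 11 libraries, and its trophoblast-like levels spread from 1.16 to 130 CPM.

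CDO1 had a median of 139 CPM in ISL1-positive cells (21.5 to 350), 57.4 CPM in mesoderm-like cells (12.9 to 306) and 27.6 CPM in Epi-like cells (4.52 to 162). The second mutant Day 12 library held the highest CDO1 level of each of these 3 classes. ANXA3 had a median of 143 CPM in ISL1-positive cells (29.6 to 216) and 22 CPM in Epi-like cells (8.91 to 50.5). Its other classes overlapped one another in a chain from mesoderm-like (median 53.5 CPM) to ExE-Mech-like (median 13.2 CPM).

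The share of cells with a UMI at equal depth put ISL1-positive cells above Epi-like and trophoblast-like cells for ANXA3, CDO1, NMRK2 and RAB25 but not for TMEM54 and SLC7A3. For NMRK2 the order against Epi-like cells turned with depth, at 53.6% against 46.6% with 10000 UMIs, 23.1% against 27.3% with 5000 and 67.9% against 78.4% without thinning. Each cell was thinned to 10000 UMIs, which left out 29 of the 244 ISL1-positive cells in the 9 libraries and 4027 trophoblast-like cells. The median share over libraries in ISL1-positive cells was 88.2% for TMEM54, 71.4% for RAB25, 68.4% for ANXA3, 54.5% for CDO1, 53.6% for NMRK2 and 33.3% for SLC7A3. In trophoblast-like cells it was 92.3% for TMEM54 and 0.388% for SLC7A3, and the latter was no higher than the 0.631% of ExE-Mech-like cells, so it is read as background. Epi-like cells had a median share of 36.3% for SLC7A3, with overlapping ranges. Without thinning, the share for SLC7A3 in ISL1-positive cells was 66.7%.

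**Figure D2:**
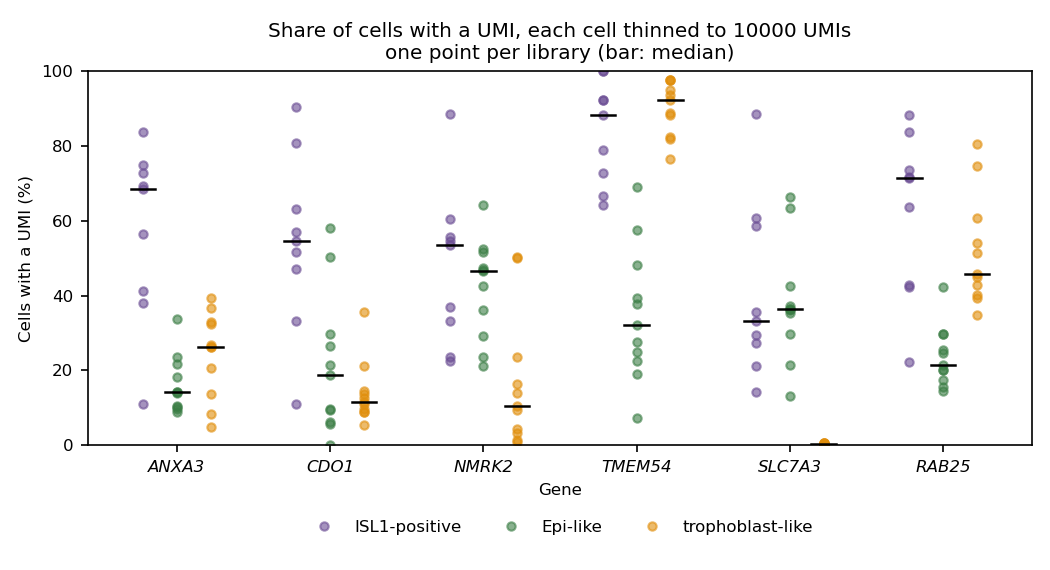
Percent of cells with at least 1 UMI of each gene after thinning each cell to 10000 UMIs, with 1 point per library and a bar at the median, for ISL1-positive, Epi-like and trophoblast-like cells. The trophoblast-like median is 92.3% for TMEM54 and 0.388% for SLC7A3.

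The number of the 6 genes found in each cell was also counted. These counts were not set against what the separate share of each gene would give, so they do not show joint expression beyond those shares. After the same thinning, over 219 ISL1-positive cells that include the 4 of the first wild-type Day 10 library, the median cell held UMIs of 4 of the 6 genes, against 1 in Epi-like, 2 in trophoblast-like and 0 in ExE-Mech-like cells. At least 4 genes were found in 57.5% of ISL1-positive cells (22.2% to 80.8% over 9 libraries) and in 10.7% of Epi-like cells (2.01% to 37.8% over 11). In mesoderm-like cells it was 12% (0% to 50% over 7), and both ranges overlapped that of ISL1-positive cells. All 6 were found in 21 ISL1-positive, 9 Epi-like, 3 mesoderm-like and 3 trophoblast-like cells.

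ISL1-positive cells were then compared with Epi-like cells, the lineage from which amnion arises. The 7 libraries outside wild-type Day 14 with at least 5 cells of both classes were used, 2 wild-type and 5 mutant, with the library as a block. The ISL1-positive cells of the 2 wild-type libraries had medians of 0 and 1 amnion markers, against 3 to 5 in the mutant libraries. The comparison therefore says most about mutant embryos. ANXA3, TMEM54, RAB25 and CDO1 were higher in ISL1-positive cells, and NMRK2 and SLC7A3 did not pass the test. By edgeR's quasi-likelihood test with Benjamini-Hochberg adjustment over 7836 genes and a 1% false discovery rate, 4 of the 6 passed as higher and 0 as lower, against 7.84% of all genes higher and 5.77% lower.

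ANXA3 rose by 2.43 ± 0.29 (log2 fold change ± SE, edgeR adjusted p = 0.00016). TMEM54 rose by 2.33 ± 0.24 (edgeR adjusted p = 6.1e-05) and RAB25 by 2.06 ± 0.24 (edgeR adjusted p = 0.00013). CDO1 rose by 1.93 ± 0.31 (edgeR adjusted p = 0.00084). Each of these 4 genes was higher in ISL1-positive cells in each of these 7 libraries. NMRK2 had a log2 fold change of 0.44 ± 0.15 (edgeR adjusted p = 0.044) and SLC7A3 of 0.72 ± 0.28 (edgeR adjusted p = 0.076). Without the second wild-type Day 10 library the same 4 genes passed, in a fit that called 15.8% of all genes. Without the library block CDO1 no longer passed (edgeR adjusted p = 0.18). In the 2 wild-type libraries alone RAB25 lost its call (edgeR adjusted p = 0.014) and SLC7A3 passed (1.55 ± 0.22, edgeR adjusted p = 0.0019), with 1.7% of all genes called. With amnion cells chosen without ISL1, NMRK2 passed (0.89 ± 0.21, edgeR adjusted p = 0.0062). That fit called 21.1% of all genes, against 13.6% in the main fit. Some of the markers that chose its cells were listed by the study together with NMRK2, so the call of NMRK2 there is not independent of the choice of cells.

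Many genes of the fixed lists were also higher in ISL1-positive cells, and none passed as lower. Of the 14 other Amnion 1 genes 11 were higher and 0 lower, with a median log2 fold change of 1.24 against -0.02 over all genes; ISL1 is among them and chose the cells. LITAF, a lysosomal membrane protein, rose by 2.18 ± 0.19 and the vesicle SNARE VAMP8 by 1.86 ± 0.21. Of the 19 Amnion 2 genes 14 were tested, of which 13 were higher, led by ANKRD1 (4.51 ± 0.62), the NOTCH target HEY1 (4.15 ± 0.27) and PRTG (4.02 ± 0.33). The study chose both lists on cells of this series, so their direction is no independent evidence. The same holds for genes of the lists that follow, since symbols came only from the study's gene tables, and SLC7A5 and SLC3A2 are also Amnion 1 genes and KRT8, KRT18 and KRT19 also Amnion 2 genes. All 5 annexins with a symbol, of 9 listed, were higher, including ANXA4 (2.09 ± 0.31) and ANXA1 (1.95 ± 0.33). SLC7A5 and SLC3A2, the chains of a neutral amino acid carrier and the only matched genes of 10 listed, rose by 1.30 ± 0.28 and 1.16 ± 0.16. Of 7 matched simple-epithelium genes, of 21 listed, 4 were higher, with KRT18 at 3.66 ± 0.51, KRT8 at 3.09 ± 0.41, KRT19 at 2.60 ± 0.21 and EPCAM at 1.47 ± 0.19. The other 3 did not pass, with OVOL2 at -1.39 ± 0.35 (edgeR adjusted p = 0.012), KRT7 at -0.56 ± 0.34 and SPINT2 at 0.46 ± 0.19. No gene of the lists for the RAB11 group, NAD salvage or cysteine and taurine metabolism could be matched to a symbol.

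The same libraries were used to compare ISL1-positive with trophoblast-like cells, which share several amnion genes. SLC7A3 was the largest difference among the 6, and NMRK2, CDO1 and ANXA3 were also higher in ISL1-positive cells, although the calls of these 3 changed with the processing. By edgeR's quasi-likelihood test over 11385 genes 4 of the 6 passed as higher and 0 as lower, against 12.6% of all genes higher and 14.5% lower.

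SLC7A3 rose by 7.76 ± 0.48 (edgeR adjusted p = 9.4e-07), NMRK2 by 2.78 ± 0.59 (edgeR adjusted p = 0.0031), CDO1 by 2.57 ± 0.66 (edgeR adjusted p = 0.0093) and ANXA3 by 1.36 ± 0.24 (edgeR adjusted p = 0.00098). TMEM54 (0.14 ± 0.39, edgeR adjusted p = 0.81) and RAB25 (0.59 ± 0.39, edgeR adjusted p = 0.26) did not pass. SLC7A3 in trophoblast-like cells is read as background, so its value does not measure a fold over expression there. The calls of TMEM54 and RAB25 changed with the choice of cells, and that of RAB25 also with the libraries. With amnion cells chosen without ISL1 all 6 genes passed, with TMEM54 at 1.16 ± 0.18 (edgeR adjusted p = 0.00013) and RAB25 at 1.41 ± 0.20 (edgeR adjusted p = 7.5e-05). That fit called 29.3% of all genes, and some of the markers that chose its cells were listed by the study with the 6 genes. RAB25 also passed with ISL1 at 4 UMIs or more (1.18 ± 0.30, edgeR adjusted p = 0.0089), with an ISL1 level added (1.03 ± 0.28, edgeR adjusted p = 0.0096) and in the mutant libraries alone (1.19 ± 0.21, edgeR adjusted p = 0.00095). The call of CDO1 was lost in 6 of the 7 fits that left out 1 library, and that of NMRK2 without either mutant Day 12 library, so 2 of the 6 passed without either. NMRK2 also lost its call without the library block (1.48 ± 0.81, edgeR adjusted p = 0.16), with ISL1 at 1 UMI or more (edgeR adjusted p = 0.022), with the odd-numbered markers and with the looser gate (edgeR adjusted p = 0.011 in both). CDO1 lost its call with ISL1 at 1 UMI or more (edgeR adjusted p = 0.076). ANXA3 lost its call with at least 20 cells (1.11 ± 0.32, edgeR adjusted p = 0.028) and without the library block (edgeR adjusted p = 0.015). In the 2 wild-type libraries alone SLC7A3 was the 1 gene of the 6 that passed, in a fit that called 4.6% of all genes. There CDO1 was 0.86 ± 1.16 (edgeR adjusted p = 0.69), NMRK2 0.74 ± 0.51 (edgeR adjusted p = 0.4) and ANXA3 1.91 ± 0.33 (edgeR adjusted p = 0.013). TMEM54 was -1.39 ± 0.23 and RAB25 -1.15 ± 0.31, opposite in sign to the pooled values, and neither passed. In the second wild-type Day 10 library itself the log2 ratio was -1.51 for CDO1 and -0.16 for NMRK2, while both were positive in the other 6 libraries. Without the second wild-type Day 10 library the same 4 genes passed, in a fit that called 28% of all genes. In that fit TMEM54 was 0.43 ± 0.35 (edgeR adjusted p = 0.35) and RAB25 0.93 ± 0.29 (edgeR adjusted p = 0.024). The 2 wild-type libraries of this comparison are the Day 10 and Day 12 libraries whose ISL1-positive cells had few amnion markers, and the part of this in the result was not tested.

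**Figure D3:**
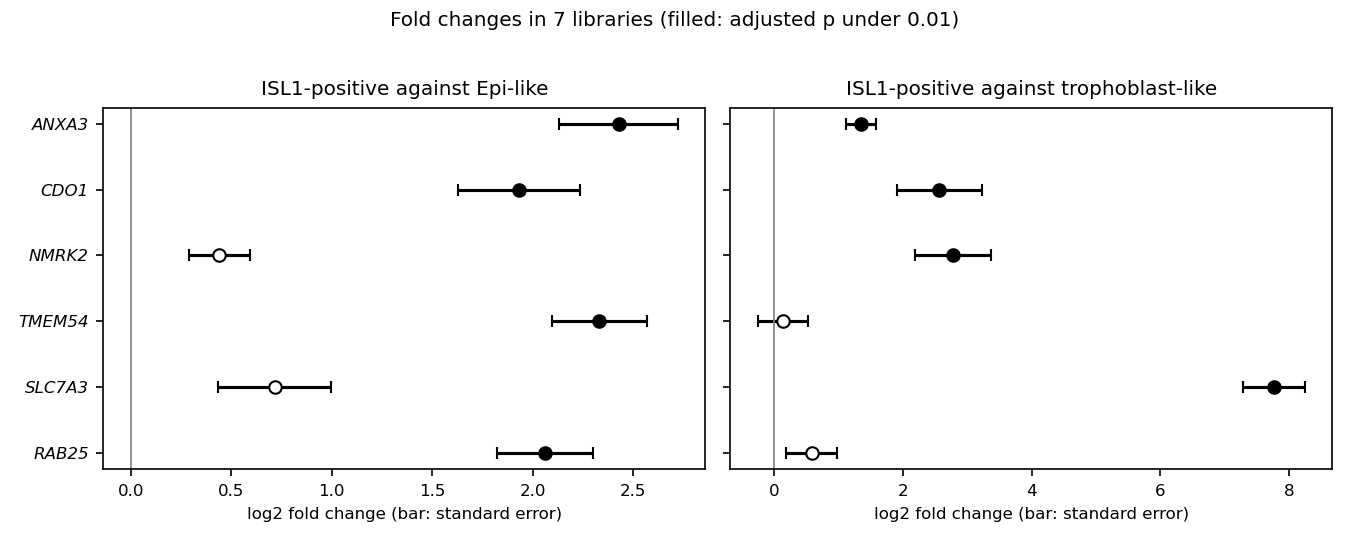
Log2 fold change with its standard error for each gene in ISL1-positive against Epi-like cells (left) and trophoblast-like cells (right) over 7 libraries, filled where the edgeR adjusted p is under 0.01. NMRK2 and SLC7A3 are open on the left, and TMEM54 and RAB25 are open on the right.

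Among the lists, read against the 12.6% of all genes higher and 14.5% lower, 2 of the 14 other Amnion 1 genes were higher than in trophoblast and 3 were lower. The 2 were ISL1, whose UMIs chose the cells, and SLC7A5 (1.22 ± 0.22), and the 3 included OSTF1 (-1.57 ± 0.22) and VAMP8 (-1.31 ± 0.20). Of the 19 Amnion 2 genes 12 were higher and 0 lower, led by LYPD1 (8.08 ± 0.99) and COX4I2 (6.67 ± 0.42). ANXA4 was lower by 3.14 on the log2 scale (-3.14 ± 0.21) and was the 1 annexin of 5 that passed. Of the 7 matched simple-epithelium genes EPCAM was higher (2.68 ± 0.37) and KRT7 lower (-2.27 ± 0.45), and KRT8, KRT18, KRT19, OVOL2 and SPINT2 did not pass, at 0.10 to 0.89.

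Whether the genes change in mutant ISL1-positive cells was asked with 4 wild-type and 5 mutant libraries and the day as a covariate. None of the 6 passed. Over 7213 genes edgeR's quasi-likelihood test called 3 higher (0.0416%) and 2 lower (0.0277%), while 1603 had an unadjusted p under 0.05 and DESeq2 called 157.

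SLC7A3 was at 89.7 CPM in wild-type Day 10 and 232 CPM in wild-type Day 12, and at 81.7 and 285 CPM in the wild-type Day 14 libraries. In the mutant it was at 20.1 CPM at Day 10, 99.8 and 113 CPM at Day 12, and 40.7 and 73.9 CPM at Day 14. At each day both mutant values, or the single one, lay below the wild-type values, and the fitted log2 difference was -1.48 ± 0.37 (edgeR adjusted p = 0.061). TMEM54 was at 181, 150, 494 and 345 CPM in the wild-type libraries of Days 10, 12, 14 and 14. In the mutant it was at 544 CPM at Day 10, 304 and 755 CPM at Day 12, and 512 and 739 CPM at Day 14. All mutant values lay above the wild-type values of the same day, with a fitted difference of 1.28 ± 0.32 (edgeR adjusted p = 0.062). RAB25 was ordered likewise, with a difference of 1.12 ± 0.28 (edgeR adjusted p = 0.062). DESeq2 passed TMEM54 and SLC7A3 (adjusted p = 0.0071 and 0.0083), so the call on these genes depends on the tool. Without the second wild-type Day 10 library the differences were -1.27 ± 0.40 for SLC7A3, 1.201 ± 0.383 for TMEM54 and 1.01 ± 0.33 for RAB25 (edgeR adjusted p = 0.099, 0.098 and 0.1), and 27 of 7019 genes were called. With the batch as a replicate block within each genotype SLC7A3 was -0.93 ± 0.30, TMEM54 1.13 ± 0.27 and RAB25 0.92 ± 0.25 (edgeR adjusted p = 0.15, 0.08 and 0.1), with 3 genes called in all, and 2 with a batch shared by the genotypes.

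Markers of the class moved with genotype at Days 10 and 12. The median ISL1-positive cell had 0 amnion and 8 Epi markers in wild-type Day 10 and 1 and 5 in wild-type Day 12, against 4 and 3 in mutant Day 10 and 3 to 4 amnion and 4 Epi markers in the mutant Day 12 libraries. At Day 14 the amnion medians overlapped, at 4 and 3 in wild-type and 3 and 5 in the mutant. The Epi medians of that day were 3 and 4 in wild-type and 2 and 3 in the mutant. ISL1 level and depth of the chosen cells differed as well. ISL1 was at 145 and 191 CPM in the wild-type Day 14 libraries and 266 and 250 CPM in the mutant ones, and its fitted difference over all days was 0.82 ± 0.28 (edgeR adjusted p = 0.12). The cells were chosen by their ISL1 UMIs, so the threshold and depth bound these values from below. The fit therefore does not measure a genotype effect on ISL1. In the first mutant Day 14 library 19 of the 36 cells sat at exactly 2 ISL1 UMIs. The threshold of 2 ISL1 UMIs was the same at all depths, and the median ISL1-positive cell had 21216.5 to 117958 UMIs in the wild-type libraries of this test and 8322 to 72035 in the mutant ones. The 19 Amnion 2 genes had a median log2 difference of 1.24, with 0 called. The part of this in the differences of SLC7A3, TMEM54 and RAB25 was not tested.

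**Figure D4:**
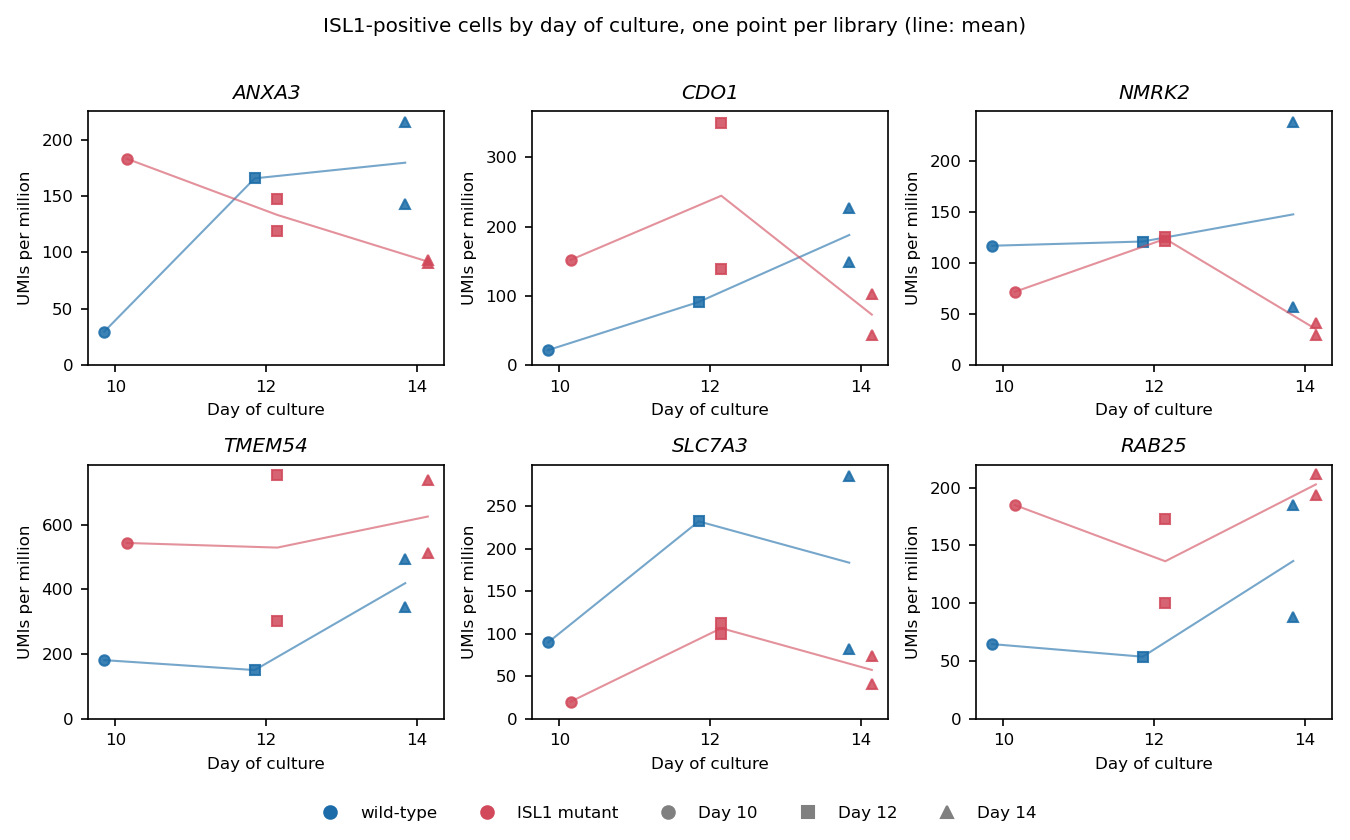
Level in ISL1-positive cells (CPM) by day of culture, with 1 point per library and a line through the means, in wild-type and mutant. SLC7A3 points are lower in the mutant at each day and TMEM54 and RAB25 points higher, and none of these differences passed the edgeR test.

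NMRK2 in ISL1-positive cells was at 117, 121, 56.8 and 238 CPM in wild-type, and at 71.5, 122, 125, 40.7 and 29.6 CPM in the mutant in order of day. The difference was -0.97 ± 0.45 (edgeR adjusted p = 0.23). ANXA3 differed by 0.07 ± 0.44 (edgeR adjusted p = 0.95) and CDO1 by 0.53 ± 0.65 (edgeR adjusted p = 0.67). Both signs turned without the second wild-type Day 10 library, to -0.58 ± 0.25 for ANXA3 and -0.18 ± 0.60 for CDO1. At Day 14 alone, where the study chose the genes, ANXA3 was at 216 and 143 CPM in wild-type and 93.4 and 90.3 CPM in the mutant, and CDO1 at 149 and 227 CPM against 103 and 42.7 CPM. These Day 14 values did not overlap between genotypes, and neither gene passed (edgeR adjusted p = 0.17 and 0.14). ExE-Mech markers moved with genotype at Day 14: the median ISL1-positive cell had 2 of 10 in the first mutant library, 0.5 in the second and 0 in both wild-type libraries, and their part in the result was not tested.

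The test of whether the mutant effect differs between ISL1-positive and Epi-like cells, in 9 libraries, passed for 0 of the 6. Over 9024 genes 0 were called in either direction (0%) by edgeR's quasi-likelihood test and 0 by DESeq2, with 740 at an unadjusted p under 0.05 in edgeR. The difference of effects was -1.05 ± 0.37 for SLC7A3 (edgeR adjusted p = 0.51), 0.79 ± 0.35 for RAB25 (edgeR adjusted p = 0.59) and -0.67 ± 0.22 for NMRK2 (edgeR adjusted p = 0.51). Without the second wild-type Day 10 library these were -0.81 ± 0.37, 0.56 ± 0.35 and -0.62 ± 0.24, and 0 of the 6 passed. Both wild-type Day 14 libraries, on which the genes were chosen, are in this test.

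Trophoblast-like cells were present in all 11 libraries, and levels of NMRK2 and ANXA3 there are given by day, although neither passed the 1% threshold. NMRK2 was at 106 and 130 CPM in the wild-type Day 10 libraries, 45.4 and 30.2 CPM at Day 12 and 4.54 and 21.5 CPM at Day 14. In the mutant it was at 15.9 CPM at Day 10, 14.9 and 5.28 CPM at Day 12, and 1.62 and 1.16 CPM at Day 14. The days did not overlap within wild-type or within the mutant, and every mutant library lay below the wild-type libraries of its day. ANXA3 ran the other way. Its wild-type levels were 7.2 and 9.66 CPM at Day 10, 14.6 and 29.6 CPM at Day 12, and then 46.3 and 35.6 CPM in the Day 14 libraries. In the mutant ANXA3 was at 34.6 CPM at Day 10, 47.7 and 58.9 CPM at Day 12, and 66.4 and 51.7 CPM at Day 14. Marker content of the class differed as well. The median wild-type Day 10 trophoblast-like cell had 7 and 6 trophoblast markers and 2 amnion markers in its libraries. Every other library had a median of 8 or 9 trophoblast markers and 1 amnion marker. The part of this in the levels by day and genotype was not tested.

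**Figure D5:**
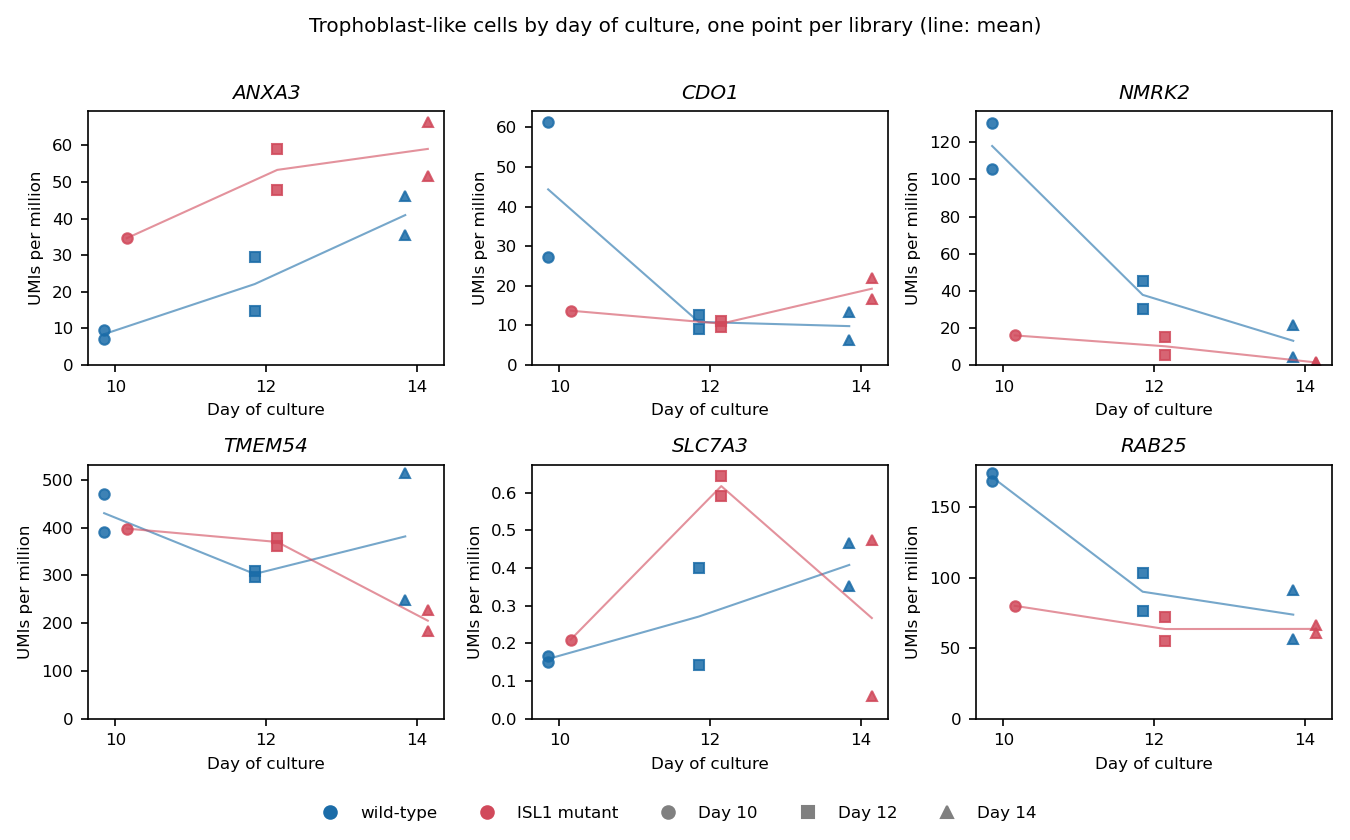
Level in trophoblast-like cells (CPM) by day of culture, with 1 point per library and a line through the means, in wild-type and mutant. The wild-type NMRK2 points lie at 106 and 130 CPM on Day 10 and at 4.54 and 21.5 CPM on Day 14, while ANXA3 goes from 7.2 and 9.66 to 46.3 and 35.6 CPM.

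From Day 10 to Day 14 NMRK2 was lower and ANXA3 higher in each of the 3 batches that have both days, which are both wild-type batches and the first mutant batch. Depth fell with day in the same 3 batches, from a median of 65178.5 to 48799, 97515 to 27541.5 and 115047 to 11420.5 UMIs per trophoblast-like cell, and its part in the result was not tested.

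At a 1% false discovery rate, Day 14 against Day 10 gave 0 calls by edgeR's quasi-likelihood test among 13897 genes (0%), with 3746 at an unadjusted p under 0.05 and 1488 by DESeq2. NMRK2 had a log2 fold change of -3.40 ± 0.52 (edgeR adjusted p = 0.017), ANXA3 of 1.65 ± 0.33 (edgeR adjusted p = 0.023) and RAB25 of -0.88 ± 0.24 (edgeR adjusted p = 0.051). CDO1 (-1.23 ± 0.54), TMEM54 (-0.53 ± 0.26) and SLC7A3 (0.92 ± 0.71) did not pass either. DESeq2 passed NMRK2, ANXA3 and RAB25. The single mutant Day 10 library moved these values: without it both NMRK2 and ANXA3 passed (edgeR adjusted p = 0.0084 and 0.0074), in a fit that called 380 of 14441 genes (2.63%). NMRK2 also passed without the second wild-type Day 14 library (edgeR adjusted p = 0.0075), where 55 of 14072 genes were called (0.391%).

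Mutant against wild-type trophoblast-like cells, with the day as a covariate, also gave 0 calls by edgeR's quasi-likelihood test among 13231 genes (0%), with 2806 at an unadjusted p under 0.05 and 661 by DESeq2. NMRK2 differed by -2.66 ± 0.44 (edgeR adjusted p = 0.039) and ANXA3 by 1.17 ± 0.25 (edgeR adjusted p = 0.06), and DESeq2 passed both. RAB25 differed by -0.56 ± 0.20 (edgeR adjusted p = 0.14). The other 3 genes had edgeR adjusted p of 0.48 or more. Without the first wild-type Day 14 library NMRK2 passed (edgeR adjusted p = 0.0078), in a fit that called 92 of 12870 genes (0.715%). Depth moved with genotype, since mutant libraries past Day 10 had the lowest median UMIs per cell, and its part in the result was not tested. At Day 10 the median of trophoblast markers did too, at 7 and 6 in wild-type and 9 in the mutant, and its part was not tested either.

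ExE-Mech-like cells had low levels of most of the 6 genes, with TMEM54 at 2.62 to 13.5 CPM. ANXA3 was at 6.23 and 3.66 CPM in the wild-type Day 14 libraries and at 57.8 and 38.7 CPM in the mutant Day 14 libraries, which do not overlap. At Day 12 it was at 13.1 CPM in wild-type and at 13.2 and 5.17 CPM in the mutant. This comparison was chosen after its values were seen. Over all days the difference was 1.65 ± 0.83 (edgeR adjusted p = 0.36), and at Day 14 alone it was 3.30 ± 0.40 (edgeR adjusted p = 0.04), short of the 1% threshold. Over 11522 genes 1 was called higher (0.00868%) and 0 lower (0%) by edgeR's quasi-likelihood test, with 1883 at an unadjusted p under 0.05 and 259 by DESeq2. RAB25, at 0.281 to 4.23 CPM, had a difference of 2.08 ± 0.52 (edgeR adjusted p = 0.14), and NMRK2 was too low to be tested. No gene of the fixed lists passed in any comparison of genotype or day.

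ISL1-positive cells with a UMI of GABRP, a GABA receptor subunit that the study lists for its Amnion 2 cluster, were set beside those without. In 5 libraries both had at least 5 cells. SLC7A3 was lower in the GABRP-positive cells in 4 of them, for example 59.2 against 103 CPM in the first wild-type Day 14 library and 19.5 against 152 CPM in the second mutant Day 14 library. In the mutant Day 10 library it was 22.1 against 19.1 CPM. CDO1 and NMRK2 were likewise lower in 4 of the 5 libraries and RAB25 higher in 4. The groups held only 7 to 49 cells, and some of these orders were close. NMRK2 was at 27.8 against 32.1 CPM in the second mutant Day 14 library, and RAB25 at 191 against 179 CPM in the first wild-type Day 14 library. NMRK2 was at 0 CPM in the 10 GABRP-positive cells of the first mutant Day 14 library. ANXA3 and TMEM54 were each higher in 2 and lower in 3. GABRP-positive cells were deeper in 4 of these libraries, so the split follows depth as well, and no test was made.

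Across 45 library-by-class sums of at least 20 cells the genes whose levels ran most like each member were listed as a description over shared libraries. TMEM54 and RAB25 were each other's nearest gene of 8863 (Pearson r = 0.92), with VAMP8 next for TMEM54 (r = 0.90). SLC7A3 was nearest to the chemokine gene CXCL12 (r = 0.96), and POU5F1 was also among its 3 nearest (r = 0.93); it encodes a pluripotency factor. NMRK2 and CDO1 both had MDH1, malate dehydrogenase, among their 3 nearest (r = 0.85 and 0.81), and CDO1 also had CDX1, a caudal homeobox gene (r = 0.82). ANXA3 was the least like any other gene, with HOXD9 (r = 0.69) and WNT3 (r = 0.67) first. Among the 6, SLC7A3 ran least like TMEM54 (r = 0.14).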

How the data were processed

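Single-cell libraries of cultured embryos were made with 10x Chromium chemistry. Per the study's methods and the labels, the authors aligned and counted with Cell Ranger 3.1.0 against Macaca_fascicularis_5.0, removed cells by mitochondrial share and gene number, and subtracted ambient RNA with SoupX. The deposited matrices hold UMI counts before this subtraction and expected counts after it, which were already whole numbers and were used in the main tests. The subtraction removed 0.196% to 8.77% of UMIs per library. Symbols come from the study's gene tables, which paired 1016 IDs.

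A marker was detected at 1 UMI or more per 10000 UMIs of the cell. A lineage needed 5 of 10 markers and 2 more than the next of 4 lists, and mesoderm-like cells needed 4 mesoderm markers. Epi-like cells had fewer than 2 ISL1 UMIs. Markers and the ISL1 threshold were set first; the lineage rules were set after marker counts and levels of the 6 genes had been seen, before any test. The 6 genes and all lists were chosen with earlier results of these data known. No doublet caller was run. Cells without a leading lineage list stayed unassigned unless they met the mesoderm or ISL1 rule. Some classed cells still held markers of another lineage. At least 4 mesoderm markers were found in 97 of 428 endoderm-like and 5 of 248 ISL1-positive cells.

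UMIs were summed per library and class (at least 5 cells) and scaled to CPM as a plain share of the sum. Sums were tested with edgeR 4.0.16 (TMM, filterByExpr, quasi-likelihood F test, two-sided, R 4.3.3), and DESeq2 1.42.0 was an alternative. The SE is the log2 fold change over the square root of F. The library is the replicate, not the cell, and libraries pool embryos. In the comparisons of genotype or day within a class, p-values measure the spread between libraries. With the library as a block (comparisons between classes, difference of mutant effects), they measure how the class difference varies between libraries. The labels give 2 batches per genotype, and batch was left out of the main fits. The study describes its Day 14 embryos of both genotypes as coming from 2 batches, without saying which libraries share one. Batch was therefore also fitted as shared and as separate. If separate, no batch holds both genotypes, so a genotype difference also carries any difference between the 2 batches of each. Same-numbered wild-type libraries correlated in their deviations from group means (r = 0.0983 to 0.199 over 3 pairs of days), those of the mutant at Days 12 and 14 had r = 0.0035, and all 10 pairs of groups ranged from -0.299 to 0.199. On counts simulated for ISL1-positive against Epi-like cells (7836 genes) the test recovered 98.9% of 4-fold and 58.1% of 2-fold changes. Recovery was lower elsewhere: 64.7% and 19.4% for ISL1-positive against trophoblast-like cells (11385 genes), 73.1% and 8.7% for mutant against wild-type ISL1-positive cells (7213 genes), 51.1% and 7.27% for the difference of mutant effects (9024 genes), 60.8% and 9.71% for genotype in trophoblast-like cells (13231 genes), 40.2% and 0% for day in trophoblast-like cells (13897 genes), and 45.3% and 1.9% for genotype in ExE-Mech-like cells (11522 genes). Named genes are the 6, their 3 most similar genes, and up to 4 per list by largest change among those passing. Sequences and coordinates are not given, since no genome of this build was used here.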

Additional observations from a re-analysis of the deposited data

Results flagged for a closer look

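The change from Day 10 to Day 14 ran in opposite directions in wild-type and mutant libraries for 2 genes, and these differences were not tested. In ISL1-positive cells the median log2 ratio of Day 14 to Day 10 was 2.57 in wild-type and -0.997 in the mutant for ANXA3, and 3.09 in wild-type and -1.20 in the mutant for CDO1. Both rest on the 9 wild-type Day 10 cells with few amnion markers and on 1 mutant Day 10 library, and the genes were chosen on wild-type Day 14 cells. In trophoblast-like cells the ratio for CDO1 was -2.16 in wild-type and 0.48 in the mutant. The wild-type Day 10 cells behind it had fewer trophoblast markers than those of the other libraries, and the part of this was not tested.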

How the results depend on the processing

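Counts of the 6 genes that passed moved as follows. Against trophoblast-like cells 4 passed, against 2 with ISL1 at 1 UMI or more, 1 in the wild-type libraries alone, 2 without the library block, and 2 to 4 when 1 library was left out. Over all genes the main fit called 27.1%, and these fits called 34.7%, 4.6%, 25% and 20% to 28% in that order. The count was 6 in the gate without ISL1 and 5 with ISL1 at 4 UMIs or more, with an ISL1 level added and in the mutant libraries alone. These fits called 29.3%, 22.1%, 28.2% and 24.8% of all genes in that order. For mutant against wild-type ISL1-positive cells 0 passed, against 2 with DESeq2, 3 without the low-count filter and 1 (TMEM54) at Day 12 alone, where the wild-type arm is 1 library assumed to vary like the mutant ones; over all genes these fits called 157 of 7213, 497 of 15780 and 134 of 7942, and leaving out 1 library moved the count of 5 to between 0 and 27. The difference of mutant effects had 1 call without the filter, where 101 of 17936 genes were called. In trophoblast-like cells DESeq2 gave 2 calls for genotype and 3 for day, in fits that called 5% and 10.7% of all genes. Leaving out 1 library gave 0 to 1 and 0 to 2 calls, with 0% to 0.715% and 0% to 2.63% of all genes called. The looser gate and the added ISL1 level were chosen after seeing the data.

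Log2 differences of single genes that had not passed turned sign as follows, and the cause was not tested. TMEM54 against trophoblast was -0.0132 without the filter, -0.0167 with the odd-numbered markers, -0.292 with ISL1 at 1 UMI, -0.0200 with the looser gate, -1.39 in wild-type alone (RAB25 -1.15), and -0.146 to 0.433 with 1 library left out. For mutant ISL1-positive cells ANXA3 was -0.0254 without the filter, -0.625 with at least 20 cells, -0.606 with ISL1 at 4 UMIs, -0.682 in the gate without ISL1, -0.646 with an ISL1 level added, -0.804 at Day 14, -0.280 at Day 12 and -0.578 to 0.335 with 1 library left out. CDO1 was -0.283 with odd-numbered markers, -0.101 with at least 20 cells, -0.252 with the looser gate, -0.134 with an ISL1 level added, -1.23 at Day 14 and -0.177 to 1.16 with 1 library left out, and NMRK2 was 0.105 at Day 12. In the difference of effects CDO1 was -0.433 with odd-numbered markers, -0.203 with the looser gate and -0.0224 to 0.949 with 1 library left out, TMEM54 was -0.0376 with odd-numbered markers and -0.0629 with at least 20 cells, ANXA3 was -0.295 with at least 20 cells and NMRK2 was 0.251 with ISL1 at 1 UMI. For genotype in trophoblast-like cells CDO1 was 0.00648 with odd-numbered markers, 1.03 at Day 14 and -0.346 to 0.467 with 1 library left out, SLC7A3 was -0.675 at Day 14 and -0.0521 to 0.648 with 1 library left out, and TMEM54 was 0.225 at Day 12. For day, CDO1 was 0.51 in mutant libraries alone. In ExE-Mech-like cells CDO1 was -0.0372 in uncorrected counts, -0.00639 with DESeq2, -0.00362 without the filter, -0.218 at Day 14 and -0.373 to 0.415 with 1 library left out, and ANXA3 was -0.490 at Day 12.

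Replicate numbers are batches that the labels name separately for wild-type and mutant embryos, and the study describes its Day 14 embryos of both genotypes as coming from 2 batches without saying which libraries share one. With the replicate block, shared or within each genotype, 0 of the 6 passed for genotype in ISL1-positive, trophoblast-like and ExE-Mech-like cells and 0 for day. Under the shared block ANXA3 in ISL1-positive cells was -0.155 and CDO1 was 0.0207 in trophoblast-like and -0.0576 in ExE-Mech-like cells. Under the block within each genotype, chosen after seeing the data, ANXA3 in ISL1-positive cells was -0.209 and CDO1 in ExE-Mech-like cells -0.108.

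Shares of cells moved with depth. At 5000 UMIs the share was 23.1% for NMRK2, 73.7% for TMEM54 and 47.4% for RAB25 in ISL1-positive cells, and 77.9% for TMEM54, 30.5% for RAB25 and 0.127% for SLC7A3 in trophoblast-like cells. Without thinning it was 66.7% for SLC7A3 in ISL1-positive cells, and 49.3% for ANXA3, 26.7% for CDO1, 28.5% for NMRK2, 1.09% for SLC7A3 and 80.4% for RAB25 in trophoblast-like cells. The ISL1-positive sums hold 9 to 56 cells.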
